A study of Mus musculus with 8 samples.

Results

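Forkhead transcription factors were read in whole pancreas of Glis3KO2 and WT pups. Members were the array probes whose gene name was Fox followed by 1 letter and digits, with Foxa1, Foxa2, Foxa3 and Foxj1 left out. The rule took 50 of the 41174 distinct probes, for 34 genes. It used names and no measured value. Of these 34 genes, 28 were detected, that is, the scanner software called a probe of theirs well above its background on 4 or more of 8 arrays, and 40 of the 50 probes met that limit. Foxn3, Foxo4 and Foxs1, 3 other forkhead genes, stood on the array under older names and are given apart.

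The groups were 4 Glis3KO2 samples and 4 WT samples, all from C57BL/6 pups aged 1 week that had been kept with their mother. The labels give the mutant by the name Glis3KO2 alone, without the deleted part of Glis3, and do not say whether a sample held more than 1 pup, and a p-value here speaks only of the variation from one sample to the next. Glis3 is a zinc finger transcription factor, and the series title names beta cells, the insulin-making cells of the islets, as the cells of interest. Total RNA of each sample was labelled with Cy3 and read on 1 single-colour Agilent array.

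Forkhead proteins bind DNA through a winged helix fold, the forkhead domain, and the family divides into lettered classes. FoxO factors carry the signal of insulin and growth factors: Akt phosphorylates them and holds them out of the nucleus, and in beta cells Foxo1 acts in stress responses and cell identity. FoxM1 drives the genes of mitosis and is needed for the growth of beta cell mass after birth, FoxP factors are repressors that act in alpha cell growth among other roles, and many FoxC, FoxD, FoxF and FoxL factors belong to mesenchyme, vessels and neural crest. The pancreas holds all of these cell types, with acinar cells, which make digestive enzymes, as its bulk. In RNA of a whole organ, fewer cells of a type and less RNA per cell cannot be told apart.

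Between 31353 and 35613 probes per array, 76.1% to 86.5%, were well above background. The single Glis3 probe, whose place relative to the deleted part is not known, was well above background on 0 Glis3KO2 arrays and on 3 of the 4 WT arrays. Of 10 beta cell markers 7 were lower past the threshold, among them Ins1 by 2.54 and Ins2 by 3.70 log2 units, while Iapp, at 0.45, was positive. Of 10 markers of other islet cells 2 were lower past the threshold, Ppy by 2.01 and Irx2 by 0.88, beside 0.174% of all tested probes. The median of these 10 was -0.54, with 2 positive. An unadjusted p under 0.05 in limma was seen for 7 of them, beside 8.97% of all tested probes. The 9 marker calls past the threshold numbered 10 without Glis3KO2 array 1, and 4 or 5 when any other single array was left out. They numbered 2 without Glis3KO2 arrays 3 and 4, 3 with Xist level as a covariate and 3 with the replicate number as a block. None of 11 acinar, 8 duct, 8 macrophage, 10 nerve and 9 motile cilium genes passed the threshold. Each genotype was hybridised on a slide of its own, and a slide effect and a genotype effect cannot be told apart. Of 10 spike-in probes, 9 were lower on the Glis3KO2 arrays, with a median log2 difference of -0.28. That difference is in signal relative to the 75th percentile of each array. The percentile itself was 461.8 to 694.1 on Glis3KO2 arrays and 460.4 to 526.9 on WT arrays. Xist was high on Glis3KO2 arrays 1, 3 and 4 and on WT array 4, so the sexes were not balanced, and Glis3KO2 arrays 3 and 4 stood apart on the first principal component and Glis3KO2 array 1 on the second.

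Probe sequences matter here because the probes of Foxk1 disagreed and because the G and C content of a probe went with how its arrays varied. The probes are 60 bases long and are printed 5' to 3' as the array files give them, with G and C in capitals. Positions are those of mouse build mm7 in the same files, all on the plus strand; the exon or untranslated region at each position is not analysed here. The Foxk1 probes lie at chr5:141429151-141429210 with 55% G and C, at chr5:141434357-141434416 with 63.3%, and at chr5:141433202-141433261 with 55%. Foxq1, at chr13:30925543-30925602, had the most G and C of the detected genes, 76.7%, and Foxo1, at chr3:52472787-52472846, had 40%.
Foxk1 A_51_P182604: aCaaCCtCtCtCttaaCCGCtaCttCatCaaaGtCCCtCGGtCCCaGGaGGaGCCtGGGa
Foxk1 A_51_P356413: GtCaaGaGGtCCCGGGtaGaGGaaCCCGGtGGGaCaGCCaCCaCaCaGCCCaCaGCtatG
Foxk1 A_52_P471583: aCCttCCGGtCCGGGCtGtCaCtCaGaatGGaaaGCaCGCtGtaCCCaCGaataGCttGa
Foxq1 A_51_P481261: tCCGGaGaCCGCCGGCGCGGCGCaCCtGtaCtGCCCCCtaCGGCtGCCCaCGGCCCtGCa
Foxo1 A_51_P138044: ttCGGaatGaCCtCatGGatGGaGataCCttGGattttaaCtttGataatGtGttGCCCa

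None of the 28 detected forkhead genes passed the threshold in the comparison of Glis3KO2 with WT, an adjusted p of 0.05 in limma with Benjamini-Hochberg adjustment over all 33239 tested probes. The background was 0.256%, or 85 probes, of which 27 (0.0812%) were higher and 58 (0.174%) lower in Glis3KO2. Here each gene is read from its brightest detected probe, values are log2 signal relative to the 75th percentile of the array, and differences are Glis3KO2 minus WT. The family's median difference was -0.01, beside -0.01 over all tested probes, with 13 genes positive and 15 negative. The median size of a difference, sign aside, was 0.13 for both the forkhead genes and all tested probes. Differences ran from -1.20 for Foxi1 to 0.64 for Foxd2.

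At an unadjusted p under 0.05, 4 of the 28 genes stood, 14.3% against 8.97% of all tested probes: Foxm1 and Foxp4 with positive and Foxn2 and Foxi1 with negative differences. Foxi1 met the detection limit through WT, where it was higher, so its place in this count is no support. The arrays of the genotypes did not overlap for Foxm1, Foxp4 and Foxn2, which is 10.7% of the genes against 5.2% of all tested probes. The smallest adjusted p in the family was 0.365. The 95% interval of the difference lay within 2-fold, that is within 1 log2 unit of 0, for 24 genes, or 85.7%, against 90.5% of tested probes. The exceptions were Foxi1, Foxk1, Foxd2 and Foxq1. It lay within 1.5-fold for 15 genes, or 53.6%, against 64.3% of tested probes. The median spread between replicates, pooled over the genotypes, was 0.29 for the forkhead genes and 0.21 over all tested probes.

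**Figure D1:**
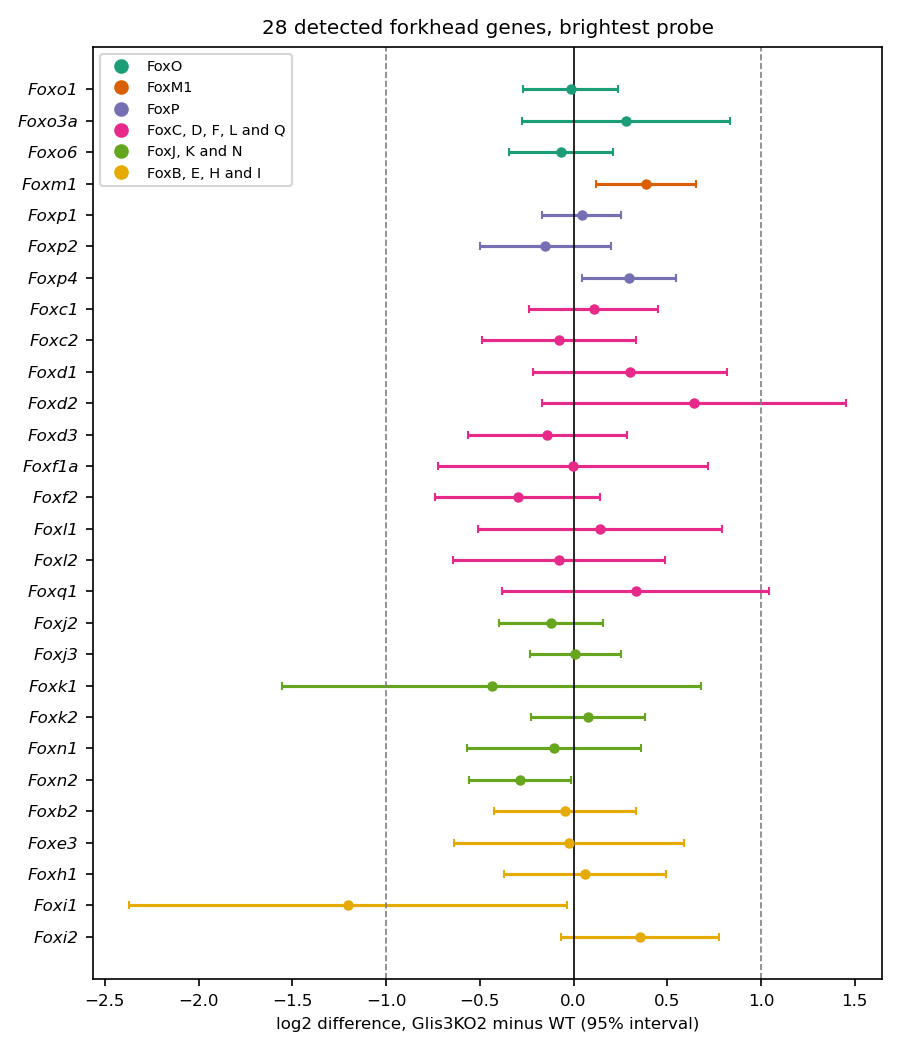
Log2 difference, Glis3KO2 minus WT, for the brightest probe of each of the 28 detected forkhead genes (points) with its 95% interval from limma (bars), coloured by class; dashed lines mark 1 log2 unit on either side of 0. Most intervals cover 0, and those of Foxi1, Foxk1, Foxd2 and Foxq1 reach past a dashed line.

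Among the FoxO factors, Foxo1 read 1.78, 1.93, 2.02 and 2.18 on Glis3KO2 arrays 1 to 4, against 2.002, 1.99, 2.09 and 1.89 on WT arrays 1 to 4. The groups overlapped, with a Glis3KO2 array at either end of the range. The difference was -0.01 (SE 0.11, 95% interval -0.27 to 0.24, adjusted p = 0.986), and a second Foxo1 probe gave -0.02 (SE 0.12). Both intervals exclude a change of 1.5-fold in either direction. Foxo6, an Akt target known mainly from brain and liver, gave -0.07 (SE 0.12, adjusted p = 0.922), with groups that overlapped.

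Foxo3a, the array's name for Foxo3, which acts in stress responses and cell death, read -4.17, -4.57, -5.16 and -4.99 in Glis3KO2, against -5.49, -4.98, -4.70 and -4.82 in WT. The groups overlapped, with Glis3KO2 array 1 the highest and WT array 1 the lowest. The difference was 0.28 (SE 0.24, adjusted p = 0.788), and -0.0073 under normexp background correction, an alternative that shrinks dim differences, while the other Foxo3a probe gave -0.08 (SE 0.11, adjusted p = 0.884). Foxo4, listed on the array under an older name and X-linked, read -2.81, -3.62, -3.86 and -3.66 in Glis3KO2, against -3.80, -3.78, -3.80 and -3.75 in WT. Its WT arrays lay close together and Glis3KO2 array 1 lay far above them, and the difference was 0.29 (SE 0.21, adjusted p = 0.730).

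Neither the known targets of FoxO factors nor their regulators held a gene past the threshold. Of 27 tested target genes, 17 had positive differences and the median was 0.01. Among the 27, 1 had an unadjusted p under 0.05, beside 8.97% of all tested probes: Tnfsf10, which encodes the death ligand TRAIL, at -0.45 (SE 0.15, adjusted p = 0.415). Next came Fbxo32, a ubiquitin ligase of muscle wasting, at 0.28 (adjusted p = 0.572), and Pdk4, which restrains glucose oxidation, at -0.33 (adjusted p = 0.582). Of 16 regulators, such as kinases and the deacetylase Sirt1, 7 had positive differences and the median was -0.03, with no unadjusted p under 0.05. Ywhaz, a 14-3-3 protein that binds phosphorylated FoxO, gave -0.19 (adjusted p = 0.651), and Sgk1, a kinase that also phosphorylates FoxO3, gave 0.39 (adjusted p = 0.693). FoxO activity is set largely by phosphorylation, which these arrays do not measure.

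Foxm1, the activator of the mitotic genes, had the smallest p of the family. It read -0.05, -0.18, 0.09 and -0.08 on the Glis3KO2 arrays, against -0.65, -0.23, -0.40 and -0.49 on the WT arrays. Every Glis3KO2 array lay above every WT array, by a narrow gap between Glis3KO2 array 2 and WT array 2. Foxm1 averaged -0.06 ± 0.11 in Glis3KO2 and -0.44 ± 0.17 in WT (SD, n = 4 each), a difference of 0.39 (SE 0.12, 95% interval 0.12 to 0.65), or 1.31-fold. The unadjusted p from limma was 0.00918 and the adjusted p was 0.365, so the gene did not pass the threshold. Its probe lies at chr6:128398004-128398063.

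A list of FoxM1 target genes and other genes of mitosis and cell division stood on the same side. All 22 of its 22 genes had positive differences, beside 48% of all tested probes, with a median of 0.41. None passed the adjusted threshold, 18 had an unadjusted p under 0.05 in limma, beside 8.97% of all tested probes, and 11 had groups that did not overlap, beside 5.2%. Ccnb1, the cyclin of mitotic entry, read -0.24, -0.61, -0.12 and -0.22 in Glis3KO2, against -0.92, -0.69, -0.87 and -0.88 in WT. That is a difference of 0.54 (SE 0.13, adjusted p = 0.217), with no overlap. Cdc20, which activates the anaphase-promoting complex, gave 0.42 (SE 0.11, adjusted p = 0.287), and Nek2, a centrosome kinase, gave 0.45 (SE 0.12, adjusted p = 0.301).

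Averaged over the list, the mitotic genes stood at 0.36, 0.16, 0.59 and 0.42 in Glis3KO2, against -0.12, 0.12, 0.04 and -0.03 in WT, relative to the WT mean. Glis3KO2 array 3 was highest, and array 2 was only just above the highest WT array. The genes of the list share one programme and one set of arrays, so their count is not a count of independent results. Without Glis3KO2 arrays 3 and 4, which stood apart, the median was 0.27, 21 of 22 were positive and 7 had an unadjusted p under 0.05. With Xist level as a covariate, the median was 0.33 and 8 had an unadjusted p under 0.05. Without WT array 1, 11 of the 22 had an unadjusted p under 0.05. Skp2 stands in this list and among the FoxO regulators. Beyond the fit with Xist level, the part of pup sex in this difference was not tested, nor was that of cell composition.

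**Figure D2:**
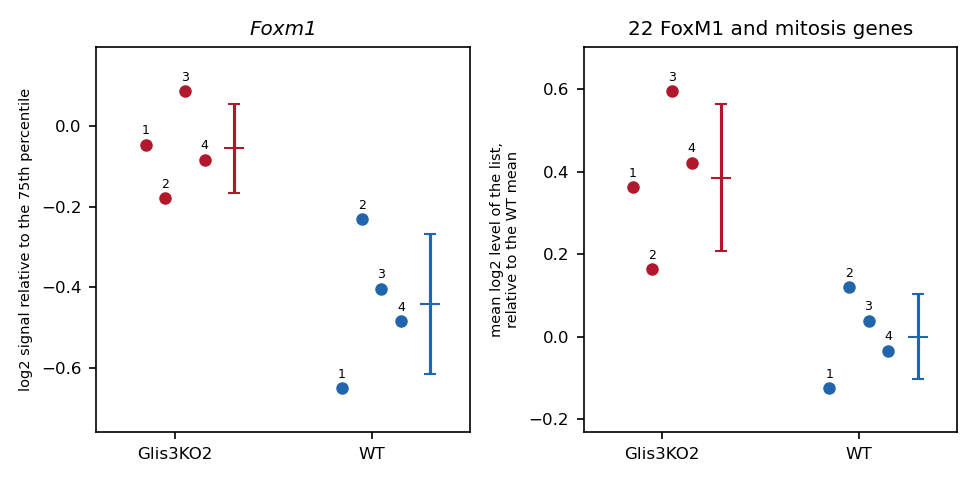
Left, log2 signal of Foxm1 relative to the array's 75th percentile; right, mean log2 level of 22 FoxM1 and mitosis genes relative to the WT mean; points are arrays with their replicate number, Glis3KO2 in red and WT in blue, and bars give the mean ± SD of 4 arrays. All 4 Glis3KO2 arrays lie above all 4 WT arrays in both panels, with Glis3KO2 array 2 closest to WT array 2.

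Of the FoxP repressors, Foxp1, Foxp2 and Foxp4, which act together in the growth of alpha cells after birth in the mouse, were detected on all 8 arrays. Foxp4 read -2.04, -2.21, -2.06 and -2.16 in Glis3KO2, against -2.22, -2.33, -2.53 and -2.57 in WT. The Glis3KO2 arrays were all higher, although Glis3KO2 array 2 and WT array 1 nearly touched. The difference was 0.29 (SE 0.11, 95% interval 0.04 to 0.55, adjusted p = 0.481). A second Foxp4 probe, with groups that overlapped, gave 0.34 (SE 0.20, adjusted p = 0.682).

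Foxp1 read 1.70, 1.85, 1.75 and 1.79 in Glis3KO2, against 1.67, 1.68, 1.87 and 1.70 in WT. The groups overlapped and the difference was 0.04 (SE 0.09, 95% interval -0.17 to 0.26, adjusted p = 0.935), the narrowest interval of the family. The other Foxp1 probes gave -0.10 (SE 0.12) and -0.24 (SE 0.14), so the sign depended on the probe. Foxp2 read -0.91, -0.86, -0.67 and -0.53 in Glis3KO2, against -0.46, -0.31, -0.66 and -0.94 in WT. Its groups overlapped, with a difference of -0.15 (SE 0.15, adjusted p = 0.827), and the second Foxp2 probe gave -0.23 (SE 0.15). Leaving out WT array 2 gave -0.059 and leaving out WT array 4 gave -0.27 for the first probe.

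Foxp3, the factor that defines regulatory T cells, was well above background on 1 array, WT array 1, and was not tested. It read -6.23, -7.48, -6.39 and -6.75 in Glis3KO2, against -5.33, -6.28, -6.42 and -6.42 in WT. Its signal was highest on WT array 1, and on the other 7 arrays the gene was not well above background. Signals this dim are a weak guide. Foxb1, well above background on 0 arrays, was also highest on WT array 1, at -5.83 against -7.27 on the next array.

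Markers of T cells and lymphoid tissue were also high on WT array 1. Averaged over 13 tested markers, the list stood at -0.25, -0.55, -0.44 and 0.03 in Glis3KO2, against 1.21, -0.49, -0.57 and -0.14 in WT. The summed level of the list ran from 1.77 to 2.42 in Glis3KO2 and from 1.82 to 3.24 in WT, and all 13 tested markers were well above background on every array. For 8 of the 13 the highest array of all was WT array 1. Cd3d, a chain of the T cell receptor complex, read -3.95, -3.99, -3.82 and -2.38 in Glis3KO2, against 0.47, -3.87, -3.94 and -2.95 in WT. Ccr7, which guides lymphocytes into lymph nodes, read -4.80, -4.97, -4.40 and -3.73 in Glis3KO2, against -0.65, -4.94, -5.34 and -4.24 in WT. Both were far higher on WT array 1 than elsewhere, while Cd3e, at 0.48 there, was not. No marker of the list passed the threshold. The part of lymphoid tissue in the Foxp3 signal was not tested. Foxn1, the factor of thymic epithelium, read -3.17, -3.84, -4.07 and -3.93 in Glis3KO2, against -3.85, -3.55, -3.83 and -3.36 in WT. WT array 1 was not high for it.

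**Figure D3:**
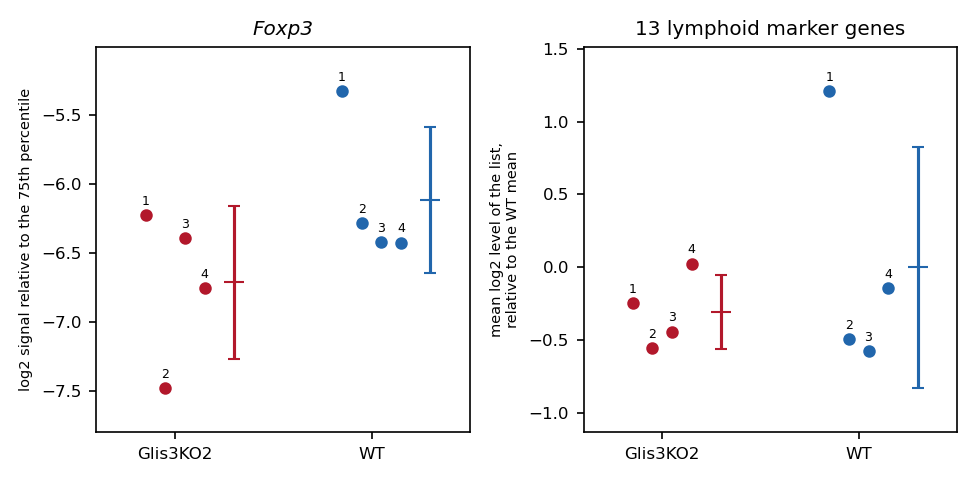
Left, log2 signal of Foxp3 relative to the array's 75th percentile; right, mean log2 level of 13 lymphoid marker genes relative to the WT mean; points are arrays with their replicate number, Glis3KO2 in red and WT in blue, and bars give the mean ± SD of 4 arrays. WT array 1 is the highest point of both panels, at -5.33 and 1.21.

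The forkhead genes of mesenchyme and vessels gave no difference past the threshold. Foxf1a, the array's name for Foxf1, a target of Hedgehog signals in gut mesenchyme, read -3.89, -4.87, -5.05 and -4.79 in Glis3KO2, against -3.84, -4.91, -5.06 and -4.77 in WT. Replicate 1 was high in both genotypes and the other arrays lay close together, so the difference was -0.0037 with a wide interval (SE 0.32, 95% interval -0.72 to 0.72). Foxf2, its close relative in gut mesenchyme, read -4.25, -4.70, -4.11 and -4.91 in Glis3KO2, against -4.05, -4.45, -4.29 and -3.99 in WT. The groups overlapped, and the difference was -0.30 (SE 0.19, adjusted p = 0.706), and -0.14 under normexp.

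Foxl1, a marker of mesenchymal cells under the gut epithelium, was well above background on 3 Glis3KO2 and all 4 WT arrays and gave 0.14 (SE 0.29, adjusted p = 0.929). Foxd1, known from the stroma of the kidney, read -4.76, -4.54, -5.02 and -5.51 in Glis3KO2, against -5.30, -5.59, -5.31 and -4.83 in WT. Its groups overlapped, and the difference was 0.30 (SE 0.23, adjusted p = 0.752), and -0.049 under normexp. Among 14 markers of pancreatic mesenchyme, none passed the threshold and the median was 0.14. Positive differences were seen for 13, beside 48% of all tested probes. The list mean relative to the WT mean was 0.18, 0.30, 0.15 and -0.01 in Glis3KO2, against -0.02, -0.18, 0.0019 and 0.19 in WT. The groups thus overlapped, and markers read on one set of arrays are not independent results. Pdgfra, a receptor on fibroblasts, gave 0.35 (adjusted p = 0.486), Nkx3-2, a homeobox gene of gut and pancreatic mesenchyme, gave 0.36 (adjusted p = 0.633), and Vim gave 0.22 (adjusted p = 0.689).

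Foxc1, which acts in the growth of vessels and mesoderm, read -1.47, -1.32, -1.52 and -1.81 in Glis3KO2, against -1.53, -1.89, -1.77 and -1.36 in WT. Its close relative Foxc2, needed for lymphatic valves, read -2.11, -2.09, -2.34 and -2.24 in Glis3KO2, against -1.71, -2.50, -2.37 and -1.89 in WT. Both overlapped, with differences of 0.11 for Foxc1 (SE 0.15, adjusted p = 0.891) and -0.08 for Foxc2 (SE 0.18, adjusted p = 0.942). Of 12 endothelial markers, none passed the threshold and the median was -0.17. A positive difference was seen for 1, beside 48% of all tested probes. The list mean relative to the WT mean was -0.18, 0.03, -0.28 and -0.37 in Glis3KO2, against -0.01, -0.15, 0.02 and 0.15 in WT. Here too the groups overlapped, and the markers are not independent results. Flt1 and Kdr, receptors for VEGF, gave -0.44 (adjusted p = 0.266) and -0.34 (adjusted p = 0.373), and Erg, an endothelial ETS factor, gave -0.33 (adjusted p = 0.551). Among 11 pericyte and smooth muscle markers, none passed and the median was 0.02. Foxs1, a forkhead gene of pericytes and neural crest listed under an older name, gave 0.09 (SE 0.14, adjusted p = 0.894).

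Foxd2 read -3.07, -4.76, -4.45 and -4.32 in Glis3KO2, against -4.16, -4.92, -5.11 and -4.99 in WT. Glis3KO2 array 1 was far above the rest, WT array 1 was the highest of its group, and the groups overlapped. The difference was 0.64 (SE 0.36, 95% interval -0.17 to 1.45, adjusted p = 0.658). It was 0.28 without Glis3KO2 array 1 and 0.09 under normexp background correction. Probes of Foxd2os, the transcript on the opposite strand next to Foxd2, gave 0.05 and -0.02.

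Foxq1, an epithelial factor known from hair and from mucin in the stomach, read 3.07, 2.05, 1.75 and 1.71 in Glis3KO2, against 2.34, 1.85, 1.47 and 1.60 in WT. Array 1 was again the highest of each genotype. The difference of 0.33 (SE 0.32, 95% interval -0.38 to 1.05, adjusted p = 0.811) was 0.02 without Glis3KO2 array 1. Foxd3, a neural crest factor, gave -0.14 (SE 0.19), and Foxl2, the factor of ovarian granulosa cells, gave -0.08 (SE 0.25), both with groups that overlapped.

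Among the more broadly active FoxJ, FoxK and FoxN genes, Foxn2 read -1.93, -1.59, -1.57 and -1.68 in Glis3KO2, against -1.43, -1.22, -1.41 and -1.56 in WT. The Glis3KO2 arrays were all lower, with Glis3KO2 array 3 next to WT array 4. The difference was -0.29 (SE 0.12, 95% interval -0.56 to -0.02, adjusted p = 0.529), and a second detected probe gave -0.26 (SE 0.17, adjusted p = 0.706). Foxj2 gave -0.12 (SE 0.12), Foxj3 gave 0.01 (SE 0.11), and 4 probes of Foxk2 gave between -0.04 and 0.08. Foxn3, a repressor listed under an older name, gave -0.18 (SE 0.13, adjusted p = 0.722) by its brightest probe, and 0.01 and -0.01 by the other probes.

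The probes of Foxk1, a factor known from muscle progenitors, disagreed. The brightest, A_51_P182604, read -0.31, -2.36, -2.02 and -0.03 in Glis3KO2, against -0.77, -0.45, -0.96 and -0.79 in WT. Glis3KO2 arrays 1 and 4 lay above every WT array and arrays 2 and 3 lay below every WT array. The SD was 1.18 in Glis3KO2 and 0.21 in WT, and the difference was -0.44 (SE 0.49, 95% interval -1.56 to 0.68, adjusted p = 0.851). It was -0.046 without Glis3KO2 array 2 and -0.82 without array 4.

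This split did not appear in the other Foxk1 probes. A_51_P356413 read -0.93, -1.58, -1.88 and -1.67 in Glis3KO2, against -1.48, -1.53, -1.54 and -1.34 in WT, a difference of -0.04 (SE 0.19, adjusted p = 0.972). A_52_P471583 read -2.67, -3.32, -3.01 and -3.40 in Glis3KO2, against -3.28, -3.42, -3.96 and -3.64 in WT. Its difference of 0.47 (SE 0.20, adjusted p = 0.536) had the opposite sign and an unadjusted p under 0.05, with groups that overlapped. The mean of the probes gave -0.0039. The transcript record behind A_51_P182604 differs from that of the other probes. Among the Glis3KO2 arrays, Xist was low on array 2 alone, and the part of pup sex in the split was not tested.

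**Figure D4:**
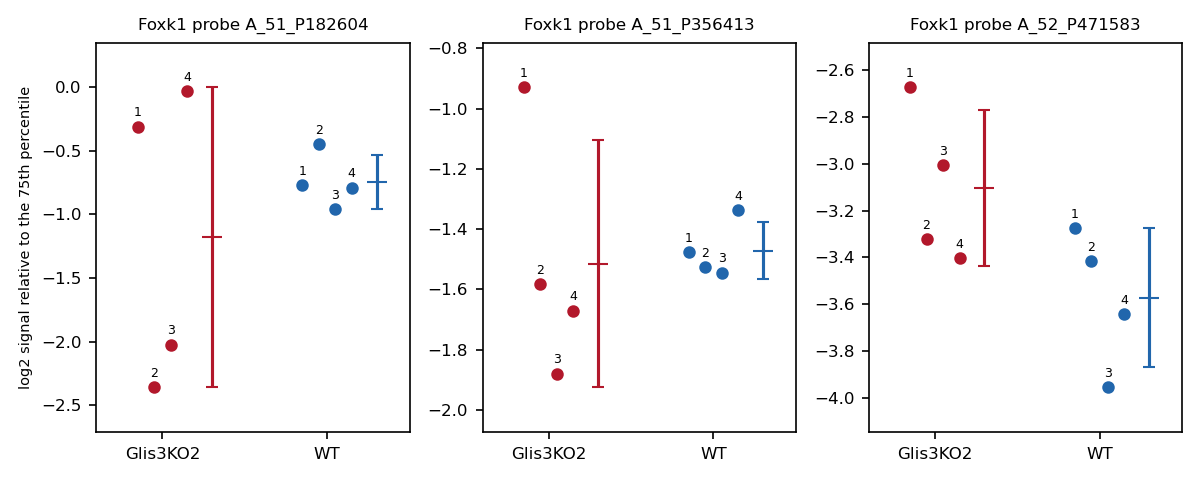
Log2 signal of the 3 Foxk1 probes relative to the array's 75th percentile, each panel on its own scale; points are arrays with their replicate number, Glis3KO2 in red and WT in blue, and bars give the mean ± SD of 4 arrays. The Glis3KO2 arrays split into a high and a low pair for A_51_P182604, with an SD of 1.18, and not for the other probes.

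The tissue-restricted classes were measured too, although what cells of the pancreas would give these signals is not analysed here. Foxi1, a factor of the inner ear and of acid-secreting cells of the kidney, had the most negative difference of the family on the processed signals, but not under normexp, where Foxk1 and Foxn2 were more negative. It read -7.69, -5.21, -5.68 and -6.93 in Glis3KO2, against -5.19, -5.52, -5.56 and -4.44 in WT, and was well above background on 2 Glis3KO2 and all 4 WT arrays. It met the detection limit through WT, and its size of difference rests in part on Glis3KO2 signals not well above background. Glis3KO2 arrays 1 and 4 were the low ones and array 2 lay among the WT arrays. The difference was -1.20 (SE 0.52, 95% interval -2.37 to -0.03, adjusted p = 0.543), with -0.23 under normexp and -0.77 without Glis3KO2 array 1. Foxi2 read -4.63, -3.89, -4.43 and -4.48 in Glis3KO2, against -4.45, -5.00, -4.84 and -4.55 in WT. Its groups overlapped and its difference was 0.35 (SE 0.19, adjusted p = 0.632), and 0.0051 under normexp.

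Foxh1, a partner of Smad proteins in Nodal signalling in the embryo, read 3.03, 2.33, 2.08 and 2.54 in Glis3KO2, against 2.64, 2.30, 2.39 and 2.41 in WT. Array 1 was the highest of each genotype, and the difference was 0.06 (SE 0.19, adjusted p = 0.958). Foxe3, the lens factor, gave -0.03 (SE 0.27) and Foxb2 gave -0.05 (SE 0.17).

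There were 6 genes not detected by the limit of 4 arrays. Foxd4 was well above background on 3 arrays, 2 of Glis3KO2 and 1 of WT, and Foxp3 on the WT array named above. Foxb1, Foxe1, the thyroid factor, and Foxn4, known from retina and spinal cord, were well above background on 0 arrays. Just inside the limit were Foxi1, on 6 arrays, and Foxl1, on 7, and just outside it was Foxd4, on 3. The other 26 genes were detected on all 8 arrays. No gene was well above background on every array of one genotype and on at most 1 of the other.

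For the forkhead genes, array 1 was often the highest of its genotype, most of all where the probe was rich in G and C. Over all tested probes this held in Glis3KO2 alone. WT array 1 was the highest for 17.2% of them, less than an equal share among 4 arrays. Of the 28 genes, 10, or 35.7%, had a probe with at least 50% G and C, beside 18.6% of all tested probes. Array 1 was the highest of its genotype for 12 of the 28 genes in Glis3KO2 (42.9%, against 34.7% of tested probes), for 10 in WT (35.7%, against 17.2%) and for 8 in both at once (28.6%, against 8.05%). Among the 10 genes rich in G and C it was the highest for 8 in Glis3KO2 and for 5 in WT. Over all tested probes with such content, array 1 was the highest for 53.2% in Glis3KO2 and 23.7% in WT. It was the highest in both genotypes at once for 5 of the 10: Foxq1, Foxe3, Foxd2, Foxh1 and Foxl2. Over all tested probes with such content that share was 15.8%. For the 18 genes with less G and C, array 1 was the highest for 4 in Glis3KO2 (22.2%, against 30.4% of such tested probes), for 5 in WT (27.8%, against 15.7%) and in both for Foxf1a, Foxd3 and Foxp4 (16.7%, against 6.28%). In WT and in both at once, the share was thus above that of all such probes in this class too.

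The shift was seen by content class as well. In 9 tested forkhead probes with at least 55% G and C, the median deviation from the mean of the own genotype was 0.59, -0.09, -0.36 and -0.14 on Glis3KO2 arrays 1 to 4, and 0.20, 0.03, -0.22 and -0.05 on WT arrays 1 to 4. In 2984 other probes of that class it was 0.19, -0.01, -0.17 and -0.03 in Glis3KO2, and 0.02, 0.07, -0.13 and 0.04 in WT. Array 1 of Glis3KO2 was high and array 3 of both genotypes was low in either set, with medians further from 0 in the forkhead probes. In 23 forkhead probes with 35% to under 45%, the medians of the 8 arrays lay between -0.05 and 0.05. What in the sample or array this follows was not tested.

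**Figure D5:**
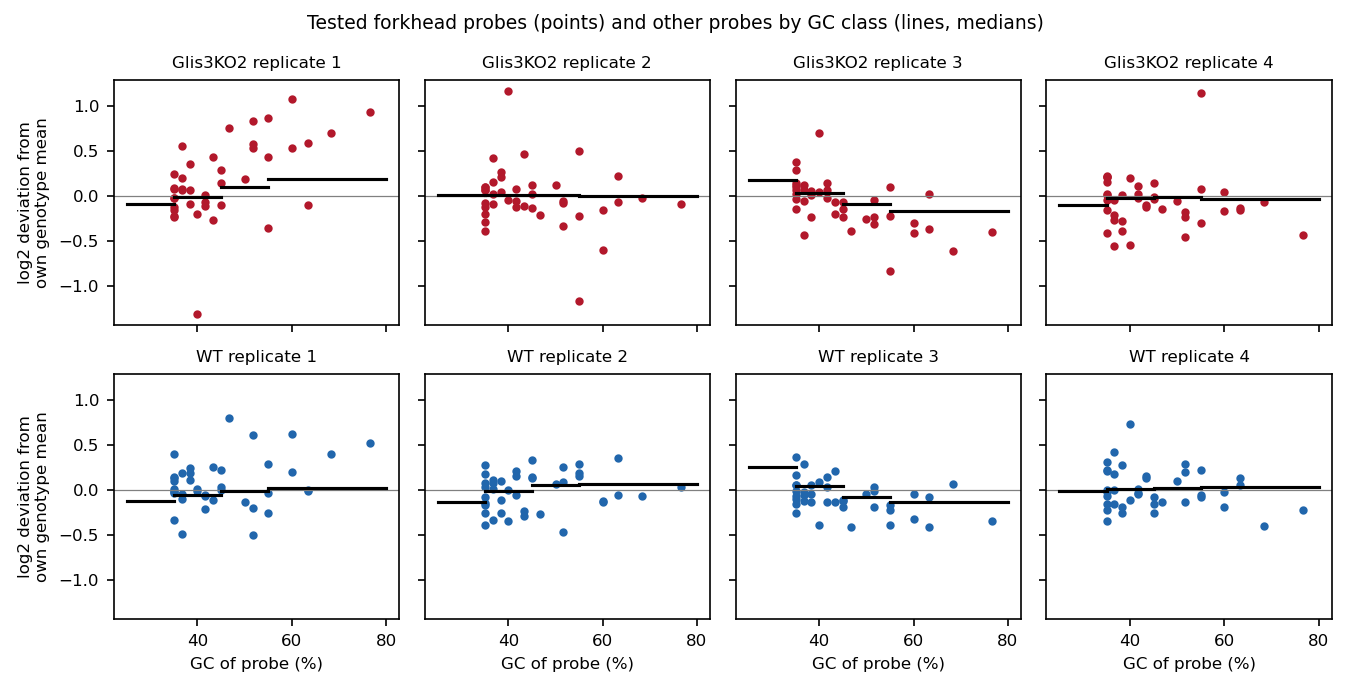
Log2 deviation of each tested forkhead probe (points) from the mean of its own genotype, against the percent of G and C in the probe, with 1 panel per array, Glis3KO2 above and WT below; black lines are medians of all other tested probes in each class. Points above 55% sit high on Glis3KO2 array 1, with a median of 0.59, and low on Glis3KO2 array 3, with a median of -0.36.

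After a spline of each array's deviation on probe content was taken off, the pooled SD was smaller for 9 of the 10 genes with at least 50% G and C, whose median SD was 0.30 after and 0.43 before. It was smaller for 7 of the other 18, whose median was 0.25 after and 0.22 before. None of the 28 passed the threshold in limma after this step, which was chosen after the values were seen. The difference was then 0.44 for Foxm1, 0.38 for Foxp4, -0.20 for Foxn2 and 0.34 for Foxq1.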

How the data were processed

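The deposited values are linear spot intensities of 8 single-colour arrays, which the authors extracted with Agilent Feature Extraction, version 9.5 per the submitters' processing notes and 9.5.3.1 per the file headers. All 45018 values per array in the series table equal these. Labelling started from 500 ng of total RNA, per the labels' protocols.

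Processed signals of 43379 non-control spots were put on the log2 scale, and the 75th percentile of the array was taken off, with outlier spots, 56 to 130 per array, left out and spots of a probe averaged. No spot was saturated. Such scaling hides a change shared by most genes. Probes well above background on at least 4 of 8 arrays entered a 2-sided test of genotype alone by lmFit and eBayes (limma 3.58.1, R 4.3.3). An adjusted p in the text is from that fit. Only 8 arrays limit the precision. On simulated data for this comparison, with 200 of 33195 probes changed, 72% of 2-fold and 94% of 4-fold changes were recovered, and 3.49% of calls were false. These shares are for probes of the whole array and were not measured for the forkhead genes. The median replicate spread of those genes was larger, 0.29 against 0.21.

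The members, 15 gene lists and the named genes were chosen with earlier results of these data known. Full values were given for the 10 member genes with the smallest p, for genes whose probes disagreed, and for genes with known roles in pancreas, stroma, vessels or lymphoid cells. Lists name members past the threshold or up to 3 with the smallest p. A list of 5 sex-linked genes was read for Xist alone, and 0 of the 5 passed. RefSeq accessions were given for 25510 probes, and 22951 of these were found in the gene table used for names. Some genes of the family and lists are counted but not reported here by name. Groups and replicate numbers came from sample titles. Deviations of same-numbered samples correlated at 0.13, 0.09, 0.24 and -0.04. Correlations between differently numbered samples were not set beside these, so they cannot show whether the numbers pair the samples. The main fit treated the samples as unpaired.

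Alternatives were normexp background correction (offset 50), quantile and median scaling, other filters, the series table, a replicate block, trend and robust eBayes, array weights, Xist as covariate, arrays left out, and a correction for probe G and C content. Python 3.11.15 and matplotlib 3.10.9 drew the figures.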

Additional observations from a re-analysis of the deposited data

Results flagged for a closer look

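Foxp1 on WT array 3 read 1.87, far from the other WT arrays, which lay close together between 1.67 and 1.70; its gap to the next array was 0.849 of the range of the 4, above Dixon's 95% critical value for 4 samples. It was 1 of 56 groups checked, and chance gives such a value in about 1 in 20 groups.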

How the results depend on the processing

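No forkhead gene passed the threshold under any alternative run, and limma called 11 probes of the array without Glis3KO2 arrays 3 and 4, up to 142 with trend and robust settings, against 85. Other counts over all probes were 15 with the replicate block, 46 with the block and the G and C correction, 27 with Xist, 23 without both arrays numbered 1, 51 with no filter and 35 to 96 leaving out each array. The family median was 0.15 without Glis3KO2 arrays 3 and 4, against -0.01, and -0.08 to 0.04 leaving out each array. Cell type markers past the threshold numbered 9, and 5 with no filter, 3 with the replicate block, 3 with Xist, 2 without Glis3KO2 arrays 3 and 4, 5 with G and C correction and block, 3 without both arrays numbered 1, and 4 to 10 leaving out each array. No list of FoxO targets, FoxO regulators or mitotic genes gained a call under any of these. Foxm1 stayed positive under each, from 0.31 to 0.46, with adjusted p from 0.219 to 0.857. Signs that turned all belonged to genes that no setting called, and the cause was not tested. Foxd1 was -0.049 and Foxo3a -0.0073 under normexp, and Foxo3a -0.069 without both arrays numbered 1. Foxo1 was 0.011 under normexp, 0.012 under median scaling, 0.023 with array weights, 0.0095 with Xist, 0.055 with G and C correction (also with the replicate block), 0.056 without both arrays numbered 1, and -0.082 to 0.052 leaving out each array. Foxf1a was 0.094 under quantile and 0.023 under median scaling, 0.27 without Glis3KO2 arrays 3 and 4, 0.014 with G and C correction (also with the block), 0.011 without both arrays numbered 1, and -0.26 to 0.26 leaving out each array. Foxc2 was 0.017 without Glis3KO2 arrays 3 and 4, 0.015 with G and C correction (also with the block), 0.032 without both arrays numbered 1, and -0.20 to 0.060 leaving out each array. Foxp1 was -0.10 by the mean of its probes. With 4 arrays a group, Foxi1, Foxd2, Foxk1 and Foxq1 had intervals that reach past 2-fold, and a limit of 8 arrays for detection left 26 of the 28 genes.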
